A study of Lentinus tigrinus with 27 samples.

Results

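Cap and stipe of the stage 2 primordium of Lentinus tigrinus RLP-9953-sp were compared across all genes, using the 3 cap libraries (P2_cap) and the 3 stipe libraries (P2_stipe) of that stage, 6 of the 27 libraries of the study. Members were chosen by their labels alone, and the values are reads assigned to each gene in polyA RNA-seq libraries. L. tigrinus is a wood-decay mushroom with gills under a cap on a central stipe. The study followed its development from vegetative mycelium (VM) through stage 1 primordia (P1), stage 2 primordia and young fruiting bodies (YFB_cap, YFB_stipe) to mature fruiting bodies (FB_cap, FB_stipe, FB_lamellae), with 3 libraries in each of the 9 groups.

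All groups are of 1 strain, grown without any genetic change or added agent. Mycelium was kept on malt extract agar, and fruiting took place on moist aspen sawdust mixed with wheat bran. These cultures spent 21 days at 30 °C without light and were then moved to 25 °C, with light for 12 h and darkness for 12 h. P1 was a white stalk, 5 to 20 mm tall, on which no cap could be seen. P2 was a stalk 15 to 25 mm tall whose tip had turned brown, which is the cap initial. In YFB this brown cap measured at most 5 mm across, bore gills that could only just be seen, and sat on a stipe of 30 to 40 mm, and in FB, at 50 to 70 mm, the cap was flat. Libraries of a group are described as biological replicates. No label says how many primordia went into a library, or whether cap and stipe libraries with the same number came from the same primordium.

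In gilled mushrooms the cap protects and carries the gills, on whose surface the basidia form spores, while the stipe lifts the cap into moving air. The stipe lengthens mainly by cell elongation, which in Coprinopsis cinerea goes with remodelling of the chitin and glucan cell wall. The 2 tissues arise from the same hyphae, and at stage 2 the cap initial is the first part of the stalk that can be told from the rest by eye. The comparison therefore asks which transcripts separate cap from stipe when the difference first becomes visible.

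Genes are given by identifier only, since the files do not pair identifiers with names or functions and the reference table at hand, of another assembly, matched 0 of them. The bars in the identifiers are written as _. Without names, the labelled tissues could not be checked against marker genes, and genes are grouped here by level, length and behaviour in other stages. In each direction, at most 2 identifiers are printed per comparison.

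P2_cap libraries held between 14.46 and 31.82 M reads assigned to genes and P2_stipe libraries between 13.47 and 17.95 M, against 10.84 to 31.82 M over the series. The cap libraries were thus deeper on average (24.84 ± 9.17 M against 15.60 ± 2.25 M, SD, n = 3 each). Mean depth moves with tissue, though P2_cap replicate 3 (14.46 M) was shallower than P2_stipe replicates 2 and 3 (15.37 and 17.95 M). The part of depth in the results was not tested beyond scaling. The first principal component of log2 CPM (counts divided by the scaled library size) held 58.9% of the variance among the 6 libraries and placed all cap libraries between 32.8 and 48.2 and all stipe libraries between -52.9 and -20.9. P2_stipe replicate 1 stood apart from the other stipe libraries on the second component, with 18.8% of the variance, at -49.5 against 13.8 and 16.7. The counts of calls, the summed levels, the stage 1 positions and the overlaps with later stages are also given without that library. The other results rest on all 6 libraries. Stipe libraries spread more widely than cap libraries, with a median SD of log2 CPM of 0.30 against 0.21 over 13024 genes with a mean of at least 1 TPM (transcripts scaled to gene length and library). In bulk tissue, a change in the number of cells of a type and a change in RNA per cell cannot be told apart.

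At stage 2 the genes called different between the tissues were a minority of those tested, most by a few-fold, in both directions. Of 13569 genes tested, 1056 were called (7.78%), which here means that the tissues differed at least 2-fold with an edgeR p, adjusted after Benjamini and Hochberg, under 0.05. The cap had 453 genes at a higher level (3.34% of those tested) and the stipe 603 (4.44%). The median called gene was 3.14-fold higher in the cap or 2.97-fold higher in the stipe, and the median SE of the log2 fold change was 0.38 and 0.39. Past 4-fold stood 316 genes (2.33%), 149 higher in the cap (1.10%) and 167 in the stipe (1.23%), and past 16-fold stood 32. In 1040 of the 1056 called genes all cap libraries lay on one side of all stipe libraries, which held for 4851 of all tested genes (35.8%). The calls were made on these same libraries, which favours such separation.

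**Figure D1:**
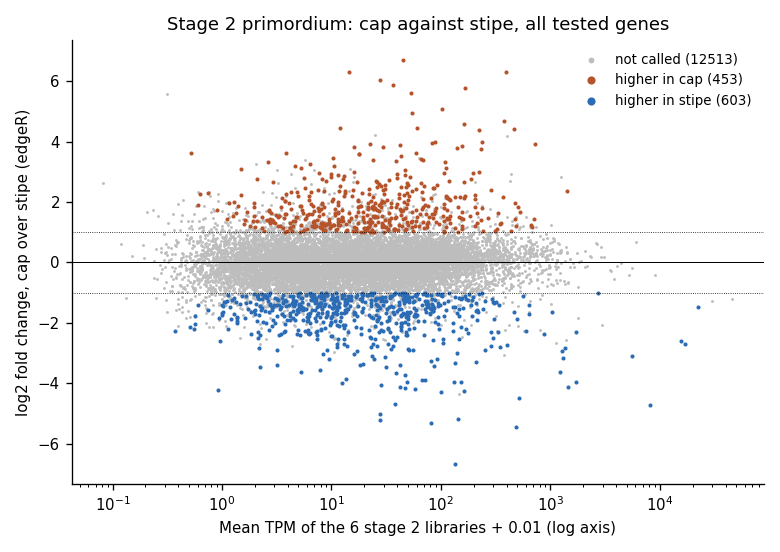
Each point is 1 of 13569 genes, with the mean TPM of the 6 stage 2 libraries on a log x axis and the edgeR log2 fold change of cap over stipe on the y axis. The 453 genes higher in the cap lie above and the 603 higher in the stipe lie below the dotted lines at 2-fold, and the called genes of highest level lie mostly on the stipe side.

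A close likeness was also measured for many genes. For 5561 genes (41.0%), the 95% interval of the fold change lay within 2-fold in both directions. Another 6952 genes (51.2%) were not called and had a wider interval, so that a change of 2-fold was not excluded for them. Among the genes not called, 331 passed the adjusted p at less than 2-fold, so that 1387 passed it in all (10.2%). An edgeR p under 0.05 before adjustment was seen for 3469 genes (25.6%).

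The number of calls was higher with DESeq2 (1351) and in an edgeR fit of the 6 libraries alone (1402). It fell to between 592 and 661 when certain single libraries were left out. Leaving out P2_cap replicate 1 gave 661 and P2_cap replicate 3 gave 628, while leaving out P2_stipe replicate 2 gave 651 and P2_stipe replicate 3 gave 592. Genes higher in the cap numbered 238 and 276 without P2_stipe replicates 2 and 3. Genes higher in the stipe numbered 356, 321 and 316 without P2_cap replicate 1, P2_cap replicate 3 and P2_stipe replicate 3. Without P2_stipe replicate 1 there were 1142 calls, 478 higher in the cap and 664 in the stipe, of which 361 and 530 were among those of all 6 libraries. A core of 384 genes (36.4% of the calls), 185 higher in the cap and 199 in the stipe, was called the same way in all 6 fits that left out 1 library and in 8 other fits.

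Cap and stipe replicate 3 were sequenced on the same flowcell, the only one that held both tissues at this stage. Genes were therefore also called without these libraries, and the ratio of cap 3 to stipe 3 was then read for them. Of 137 genes called higher in the cap without them, 136 (99.3%) were also higher in cap 3, and 114 by at least 2-fold (83.2%, against 17.5% of all tested genes higher in the cap). Of 122 called higher in the stipe, 121 (99.2%) were higher in stipe 3, and 103 by at least 2-fold (84.4%, against 20.7%). Among all tested genes the same sign was seen in 73.4% of those higher in the cap and 73.8% of those higher in the stipe. The median log2 ratios within the flowcell were 1.96 and -1.91, against median log2 fold changes of 2.21 and -2.01 in the other libraries. With flowcell as a covariate in the fit of all libraries there were 890 calls, 391 higher in the cap and 499 in the stipe. Of these, 325 and 409 were among the 453 and 603 of the main fit.

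Among abundant transcripts, more were called on the stipe side. Of 91 tested genes with a mean of at least 1000 TPM over the 6 libraries, 15 were called (16.5%), 14 higher in the stipe and 1 in the cap. Between 1 and 10 TPM, 7.48% of 4667 genes were called. A gene can reach 1000 TPM through the tissue where it is high, so the choice of this class favours calls in it. The 14 stipe genes had means of 1499 to 31369 TPM in the stipe (median 2961) and 189 to 13575 TPM in the cap (median 637). Their gene models had a median length of 690 bases against 1307 over all tested genes. Genes of 900 to 1800 bases were called at 9.16% and those of at least 3600 bases at 3.61%, where 15 of the 18 calls were higher in the stipe. Over all calls the median length was 1222 bases for cap genes and 1292 for stipe genes, near that of all tested genes.

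RNA was also less evenly spread over genes in the stipe. The 10 most abundant genes of each library held 11.6%, 9.2% and 11.8% of all TPM in cap replicates 1 to 3. In the stipe they held 22.2%, 18.9% and 29.8%. Tissues did not overlap, and the means were 10.9 ± 1.45% and 23.6 ± 5.59% (SD, n = 3 each, two-sided exact permutation test, p = 0.10, the smallest that 3 against 3 libraries allow). Between 512 and 654 genes made up 50% of TPM in the cap and between 172 and 409 in the stipe. Genes at 1 TPM or more numbered 13027 ± 31 in the cap and 12798 ± 108 in the stipe (SD, n = 3 each), and the cap libraries were deeper on average. Cap replicate 3 held 12995 such genes, against 12716 and 12757 in stipe replicates 2 and 3, which were deeper than it. Stipe replicate 1, the shallowest of the 6 libraries (13.47 M), held 12921, the most in the stipe. The part of depth in these counts was not tested.

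Summed over genes, the called sets filled different parts of the 2 tissues, which is a description, since the sets were chosen on these libraries. The 453 cap genes held 4.69%, 4.43% and 4.94% of TPM in cap replicates 1 to 3 and 1.31%, 1.00% and 0.88% in the stipe. The 603 stipe genes held 4.81%, 4.56% and 4.61% in the cap and 15.98%, 14.42% and 22.92% in the stipe. Stipe replicate 3 was the highest, and no cap library came near any stipe library. Most of this came from the 14 abundant stipe genes, which held 9.46% to 18.40% of a stipe library, against 3.61% to 4.96% for the other 589. Sets called without P2_stipe replicate 1 gave 1.6%, 1.05% and 0.86% in stipe replicates 1 to 3 for cap genes and 15.18% to 23.80% for stipe genes in the stipe libraries.

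**Figure D2:**
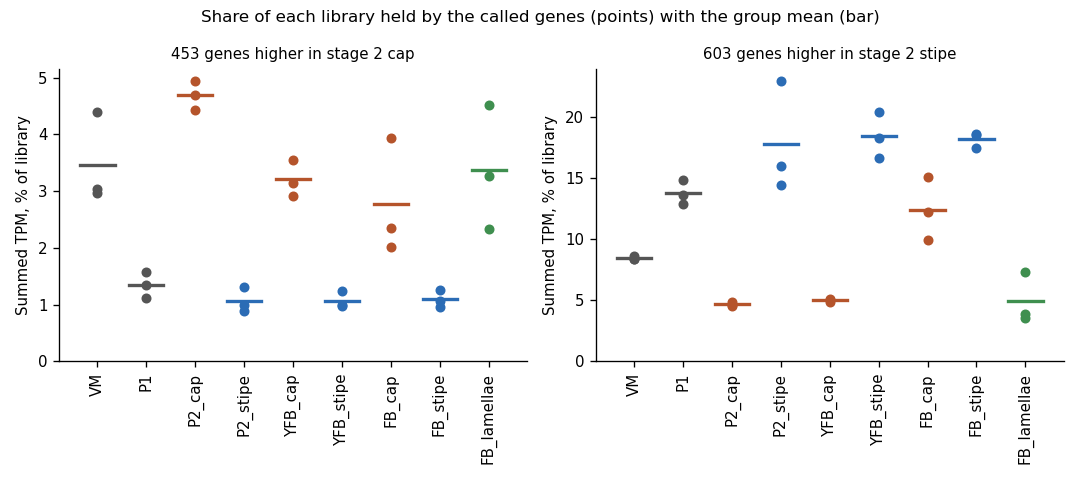
Summed TPM, as a percentage of each library, of the 453 genes higher in stage 2 cap (left) and the 603 higher in stage 2 stipe (right), with a point per library and a bar at the group mean for all 9 groups. YFB_stipe and FB_stipe lie near P2_stipe in both panels, while FB_cap lies between the tissues for the stipe genes.

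No gene was fully confined to 1 tissue by the measures used. At a level of at least 1 CPM in each library of one tissue and under 0.25 CPM in each of the other there were 0 genes in either direction. The 15 genes past 16-fold in the cap had means of 23.2 to 901 TPM there (median 117) and of 0.243 to 35.2 TPM in the stipe. Past 16-fold in the stipe were 17 genes, with means of 1.71 to 15676 TPM in the stipe (median 157) and of 0.106 to 752 TPM in the cap. The differences in these groups reached 103.2-fold and 101.0-fold.

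The stage 1 primordium, a stalk with no cap, had levels near those of the stipe for most of the called genes. Its 3 libraries belong to neither tissue group, and for each gene the stage 1 mean was placed on the line from the stipe mean (0) to the cap mean (1) on the log2 CPM scale. The median position was 0.14 for the 453 cap genes and 0.04 for the 603 stipe genes. Stage 1 lay nearer to the stipe than to the cap in 417 of the 453 (92.1%) and in 553 of the 603 (91.7%). Positions were taken for the called genes only, so the nearness to the stipe is not shown to be particular to them. With sets and means taken without P2_stipe replicate 1, the median positions were 0.22 and 0.17, and 86.6% and 85.7% of genes lay nearer to the stipe. Flowcell moves with this result, since P1 replicates 1 and 3 each shared a flowcell with 1 P2_stipe library, and P1 replicate 2 with 2 P2_cap libraries. Taken alone, P1 replicate 2 had median positions of 0.22 and 0.04, with 86.8% and 87.7% of genes nearer to the stipe. P1 replicates 1 and 3 had medians of 0.10 and 0.08 for the cap genes and 0.01 and 0.07 for the stipe genes.

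**Figure D3:**
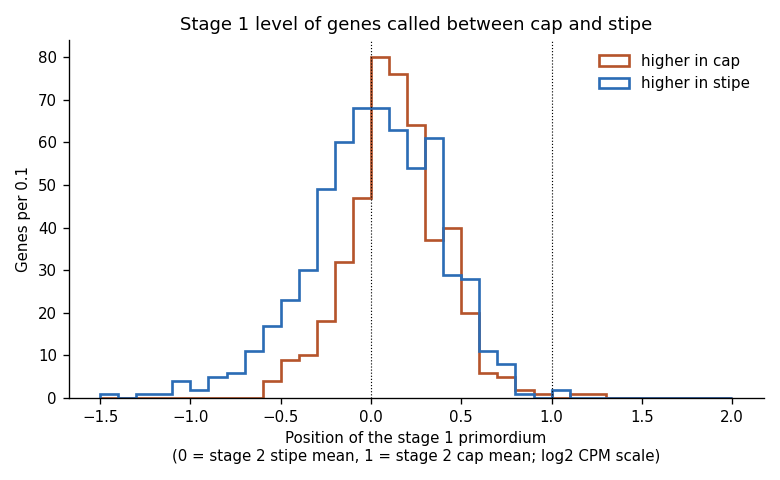
Number of genes by the position of their stage 1 primordium mean between the stage 2 stipe mean (0) and the stage 2 cap mean (1), on the log2 CPM scale in steps of 0.1, for genes higher in the cap and genes higher in the stipe. Both distributions centre near 0, with medians of 0.14 and 0.04, and 1 gene beyond the axis is drawn in the leftmost bin.

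Tests against stage 1 itself share the stage 2 libraries with the tissue comparison, so their values are set side by side. Against P1, edgeR called 316 of the 453 cap genes higher in P2_cap (5.23% of all tested genes were called that way). It called 438 of the 603 stipe genes lower in P2_cap (8.81% of all tested). Between P2_stipe and P1, edgeR called 0 genes over all tested, with 1225 (9.03%) at an unadjusted p under 0.05, while limma-voom called 0 and DESeq2 53. The part of the flowcells in this count was not tested. In the cap genes the median log2 fold change was 1.44 for P2_cap over P1 and -0.25 for P2_stipe over P1. In the stipe genes these medians were -1.55 and 0.09.

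Median levels in vegetative mycelium lay between those of the tissues for both sets, which were chosen for their difference between the tissues. Those of P1, YFB_cap, YFB_stipe, FB_cap and FB_lamellae did so too, so this is not particular to mycelium. The median log2 CPM of the cap genes was 3.89 in VM, 3.49 in P1, 5.10 in P2_cap and 3.24 in P2_stipe. That of the stipe genes was 4.26 in VM, 4.70 in P1, 3.05 in P2_cap and 4.85 in P2_stipe. Over all tested genes the medians stood between 4.20 and 4.37 in all 9 groups. Of the cap genes, 279 had their highest group mean in P2_cap (61.6%, against 9.36% of all tested genes), a share that the choice of genes favours. Of the stipe genes, 61 had it in P2_stipe (10.1%, against 2.58% of all tested genes) and 169 in FB_stipe (28.0%, against 1769 of the 13569 tested). It lay in VM for 120 (19.9%, against 22.9%), in P1 for 98 (16.3%, against 8.92%) and in YFB_stipe for 95 (15.8%, against 8.95%). The choice of the stipe genes favours P2_stipe and excludes P2_cap (0 genes, against 9.36%), which bears on all these shares.

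Most of the stage 2 differences had the same sign between cap and stipe of the young fruiting body, in 6 libraries that are not part of the stage 2 contrast but share with it the estimate of the spread. Of the 453 cap genes, 417 were higher in YFB_cap by sign (92.1%, against 45.7% of all tested genes), and 196 were called so (43.3%, against 6.85% of all tested). Of the 603 stipe genes, 584 were higher in YFB_stipe by sign (96.8%, against 54.3%), and 370 were called so (61.4%, against 11.6%). The opposite call was made for 2 cap genes (0.442%, against 11.6% of all tested) and 1 stipe gene (0.166%, against 6.85%). In all, 566 of the 1056 genes were called the same way, which is 53.6% of the stage 2 calls. They make up 21.1% of the 930 genes called higher in YFB_cap and 23.6% of the 1569 called higher in YFB_stipe. Without P2_cap replicate 1, P2_cap replicate 3 and P2_stipe replicate 3 in turn the count was 374, 376 and 325, on fewer stage 2 calls, and the share was 56.6%, 59.9% and 54.9%. Without P2_stipe replicate 1 it was 611 genes, 53.5% of the calls. With the replicate number as a block it was 532 genes, 52.5% of the calls. Leaving out YFB libraries gave shares of 48.5%, 44.5% and 47.4% without YFB_cap replicates 1, 2 and 3, and of 51.5%, 46.1% and 45.8% without YFB_stipe replicates 1, 2 and 3.

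Fold changes in the young fruiting body were smaller for these genes, with a median log2 fold change of 1.03 for the cap genes and -1.35 for the stipe genes, against 1.65 and -1.57 at stage 2, where they were chosen. The difference between the stages was tested over all genes, and edgeR called 1 (0.00737%), with 1885 (13.9%) at an unadjusted p under 0.05. The count was 2 without P2_cap replicate 1, 3 without P2_stipe replicate 1 or YFB_cap replicate 2, and 19 without YFB_cap replicate 1. It was 0 without P2_cap replicate 2, P2_stipe replicates 2 or 3, YFB_cap replicate 3 or YFB_stipe replicate 1. DESeq2 called 66 genes and limma-voom 5, edgeR called 28 in the 12 libraries alone, 9 with RLE scaling and 0 with the replicate number as a block. The median SE of this difference was 0.47 on the log2 scale. For 2712 genes (20.0%) the 95% interval of the change lay within 2-fold.

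In the mature fruiting body 267 of the 1056 genes were called the same way (25.3%), and some were called the opposite way. Of the cap genes, 159 were called higher in FB_cap (35.1%, against 8.88% of all tested) and 11 higher in FB_stipe (2.43%, against 3.63%). Of the stipe genes, 108 were called higher in FB_stipe (17.9%, against 3.63%) and 29 higher in FB_cap (4.81%, against 8.88%). The median log2 fold changes were 0.72 and -0.42, against 0.04 over all tested genes. Of the 196 cap genes and 370 stipe genes called the same way at both earlier stages, 67 and 65 were also called that way at maturity. Of the same genes, 5 of the 196 were called higher in the stipe at maturity (3.63% of all tested) and 14 of the 370 higher in the cap (8.88%). Whether these 2 counts differ beyond those shares was not tested.

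A change of the tissue difference itself between stage 2 and maturity was called by edgeR in 1215 genes (8.95%), 734 toward the cap (5.41%) and 481 toward the stipe (3.54%). No flowcell held both FB_cap and FB_stipe libraries, so a value within a flowcell cannot be given. With flowcell in the model this number was 126. The count of stage 2 genes called the same way at maturity was then 47 in place of 267, or 5.3% of 890 stage 2 calls. That count was 130 when each comparison was fitted to its own 6 libraries alone, and 166, 154 and 160 without P2_cap replicate 3, P2_stipe replicate 2 and P2_stipe replicate 3. Without P2_stipe replicate 1 the count was 272 (23.8%), and a changed tissue difference was called in 1135 genes. That number was 577, 673 and 655 without P2_cap replicates 1 and 3 and P2_stipe replicate 3, and 722, 616 and 600 without FB_cap replicate 2 and FB_stipe replicates 4 and 3.

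**Figure D4:**
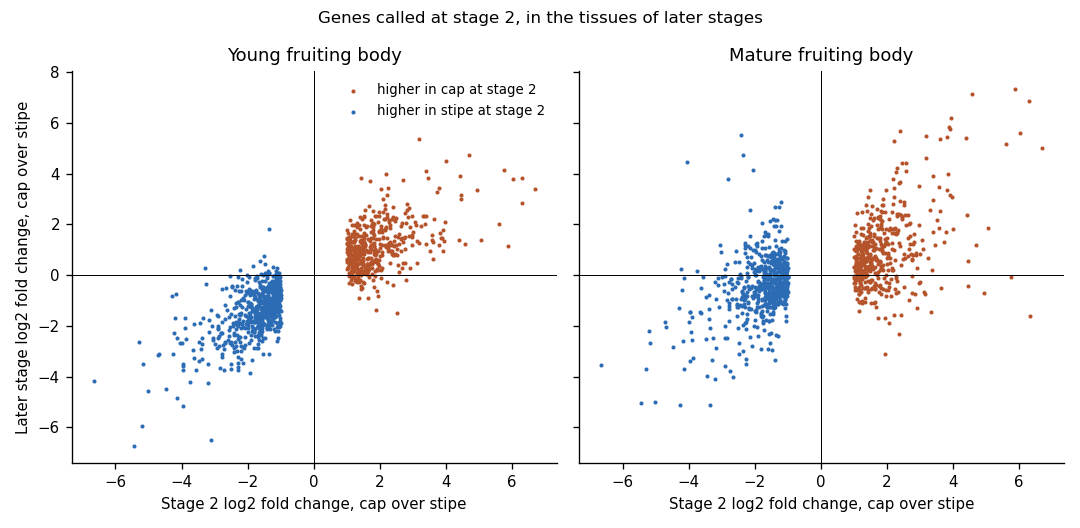
Log2 fold change of cap over stipe in the young (left) and mature (right) fruiting body against that at stage 2, for the 1056 genes called at stage 2, with a point per gene. In the young fruiting body 417 of 453 cap genes and 584 of 603 stipe genes keep their sign, and more points cross the horizontal line at maturity.

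The summed levels show where the stages part. The 453 cap genes held 2.91% to 3.55% of TPM in YFB_cap and 0.98% to 1.23% in YFB_stipe. At maturity they held 2.01% to 3.93% in FB_cap, 0.95% to 1.25% in FB_stipe and 2.33% to 4.51% in FB_lamellae. In none of these stages did cap and stipe libraries overlap. The 603 stipe genes held 4.84% to 5.11% in YFB_cap and 16.64% to 20.37% in YFB_stipe. In the mature cap they held 9.94% to 15.08%, more than in any cap library of the earlier stages, in FB_stipe 17.46% to 18.58% and in FB_lamellae 3.56% to 7.31%. The 14 abundant stipe genes accounted for 6.36% to 11.82% of FB_cap, against 2.56% to 3.32% of the P2_cap and YFB_cap libraries. Of these 14 genes, 13 were called higher in YFB_stipe (11.6% of all tested), where their median log2 fold change was -2.76. At maturity 0 were called higher in FB_stipe (3.63% of all tested) and 0 higher in FB_cap (8.88%), and their median was -0.49.

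Genes past 16-fold at stage 2 were also followed into the later stages. Of the 15 past 16-fold in the cap, 9 were called higher in YFB_cap (6.85% of all tested genes were) and 7 in FB_cap (8.88%), with median log2 fold changes of 3.16 and 2.36. Of the 17 past 16-fold in the stipe, 13 were called higher in YFB_stipe (11.6% of all tested) and 8 in FB_stipe (3.63%), with medians of -3.13 and -2.60, and 1 was called higher in FB_cap. Whether these shares differ from those of the other called genes was not tested.

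A set of 4 abundant genes illustrates the tissue difference, the 2 in each direction with the largest difference in mean TPM among called genes whose libraries did not overlap. What they encode is not annotated in the files. Lenti6_1_612170, a model of 879 bases, stood at 2982, 2083 and 2281 TPM in cap replicates 1 to 3 and at 386, 522 and 301 TPM in the stipe. All cap libraries lay far above all stipe libraries, and the gene ranked 23 by mean TPM in the cap and 307 in the stipe. Cap over stipe was 2.36 ± 0.66 on the log2 scale (SE, edgeR adjusted p = 0.0258). The call was lost in 5 of the 6 fits that left out 1 library, when P2_cap replicate 1 (2.18), P2_cap replicate 3 (2.40) or any of P2_stipe replicates 1, 2 and 3 (2.28, 2.55 and 2.27) was absent, with adjusted p from 0.00217 to 0.104 over 15 alternatives.

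The direction was the opposite at maturity. Lenti6_1_612170 stood at 171 ± 65.1 TPM in FB_cap and 755 ± 214 TPM in FB_stipe (SD, n = 3 each), and cap over stipe was -2.31 ± 0.66 on the log2 scale (SE, edgeR adjusted p = 0.0212). In the young fruiting body the means were 1607 ± 435 and 687 ± 494 TPM (SD, n = 3 each), and the difference was not called (edgeR adjusted p = 0.272). The change from stage 2 to maturity was -4.68 ± 0.94 (SE, edgeR adjusted p = 0.00479) and was called in all 21 alternatives (-4.97 to -4.17).

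Lenti6_1_577019, of 2401 bases, stood at 1122, 1403 and 1595 TPM in cap replicates 1 to 3 and at 73.5, 79.1 and 73.6 TPM in the stipe. The stipe libraries were nearly equal, and the lowest cap library lay far above them. Cap over stipe was 3.92 ± 0.52 on the log2 scale (SE, edgeR adjusted p = 6.05e-05), called in all 15 alternatives (3.78 to 4.16). The gene was also called higher in YFB_cap, with 561 ± 347 against 134 ± 104 TPM, and in FB_cap, with 490 ± 166 against 48.5 ± 18.5 TPM (SD, n = 3 each, edgeR adjusted p = 0.00869 and 0.000397). P1 stood at 114 ± 54.2 TPM (SD, n = 3), nearer to the stipe.

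Higher in the stipe were Lenti6_1_580630 and Lenti6_1_580643, both of 632 bases. Only 75.8% and 75.7% of their reads were uniquely mapped, so reads may be split between near-identical copies and their separate levels are uncertain. Lenti6_1_580630 stood at 6240, 5072 and 5149 TPM in cap replicates 1 to 3 and at 25085, 17424 and 43341 TPM in the stipe. Lenti6_1_580643 stood at 6383, 4859 and 4996 TPM in the cap and at 22622, 16280 and 39438 TPM in the stipe. Stipe replicate 3 was the highest for both, and the tissues did not overlap, which the choice of these genes required.

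The log2 fold changes were -2.70 ± 0.62 for Lenti6_1_580630 and -2.59 ± 0.66 for Lenti6_1_580643 (SE, edgeR adjusted p = 0.00765 and 0.015), and -2.63 and -2.52 on uniquely mapped reads. Without P2_stipe replicate 3 neither was called, at -2.11 and -2.0 (edgeR adjusted p = 0.0559 and 0.0941, from 8.91e-05 and 0.000575 over 15 alternatives each). The call of Lenti6_1_580643 was also lost without P2_cap replicates 2 and 3 (-2.49 and -2.54). Both were called higher in YFB_stipe (-2.65 ± 0.62 and -2.57 ± 0.66, SE). At maturity FB_cap held 26103 ± 12291 and 22221 ± 11571 TPM and FB_stipe 29249 ± 436 and 26843 ± 1268 TPM (SD, n = 3 each), and neither difference was called (edgeR adjusted p = 0.716 and 0.652).

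**Figure D5:**
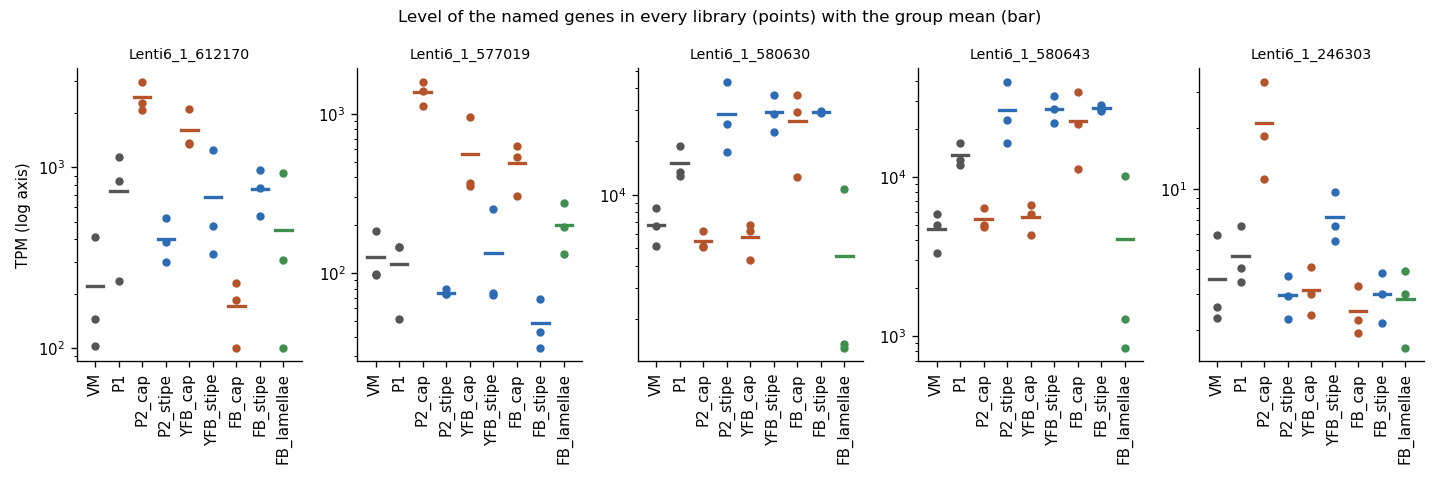
TPM on a log axis of the 5 named genes in every library, with a point per library and a bar at the group mean for all 9 groups. Lenti6_1_612170 is highest in P2_cap and lower in FB_cap than in FB_stipe, Lenti6_1_577019 is higher in the cap at each stage, and Lenti6_1_580630 and Lenti6_1_580643 stand at 11136 to 36536 TPM in FB_cap.

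The gene that edgeR called for a change of its tissue difference between stage 2 and the young fruiting body was Lenti6_1_246303. Lenti6_1_246303, of 1442 bases, stood at 11.2, 33.8 and 18.2 TPM in P2_cap and at 2.27, 3.69 and 2.96 TPM in P2_stipe. In the young fruiting body the order was the opposite, with 4.08, 3.00 and 2.36 TPM in the cap and 9.68, 6.55 and 5.54 TPM in the stipe. The tissues did not overlap at either stage, and the other groups had means of 2.49 to 4.67 TPM. The log2 fold changes of cap over stipe were 2.53 ± 0.44 and -1.50 ± 0.43 (SE, edgeR adjusted p = 0.000901 and 0.0132), and their difference was -4.03 ± 0.61 (SE, edgeR adjusted p = 0.0173).

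That difference was called in 15 of 21 alternatives, with adjusted p from 1.56e-06 to 0.0819 and values from -4.33 to -3.55. It was lost without P2_cap replicate 2 (-3.55), P2_stipe replicate 2 (-4.17), P2_stipe replicate 3 (-4.13), YFB_cap replicate 3 (-3.87) and YFB_stipe replicate 1 (-3.84). It was also lost with the replicate number as a block (-4.03, edgeR adjusted p = 0.0516).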

How the data were processed

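Libraries of 27 samples were assigned to 9 groups by their titles. The authors deposited, per the file headers, a table per library with a count of all reads and of uniquely mapped reads for 15581 gene models, gene length and TPM. The deposited TPM followed from counts and lengths to within 3.5e-10. A further deposited table gives log2 RPKM for 13805 genes, which differ from log2 RPKM of the counts by a constant per library (-0.271 to 0.239), and it held 0 columns of other samples. The tools named per the submitters' processing notes are limma 3.18.13, edgeR 3.4.2 and R 3.0.2. The aligner is not given in the sources used here, nor are genome build and strand, so overlapping antisense genes cannot be told apart. The reference table at hand (Lenti7_1, 15665 genes) matched 0 identifiers. Of the reads in the 6 libraries, 98.54% to 99.50% mapped uniquely.

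Total counts were filtered with filterByExpr (minimum count 10, 13569 genes kept, 2012 removed), scaled by TMM and fitted with 1 mean per group over all 27 libraries by the quasi-likelihood method of edgeR 4.0.16 in R 4.3.3 (18 residual degrees of freedom). The groups share 1 estimate of the spread per gene. Tests are two-sided, adjusted by Benjamini-Hochberg over all tested genes. Each F statistic, with its fold change, gave the SE and the 95% interval. CPM are TMM-scaled, with 0.5 added before logs. Functions were tested on simulated data.

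Alternatives were RLE scaling, DESeq2 1.42.0, limma-voom (limma 3.58.1), no filter, only the libraries compared, uniquely mapped reads, the replicate number as a block, flowcell as a covariate, other call rules and leaving out each library. Limma on the deposited log2 RPKM, fits without both replicate 3 libraries, the summaries without P2_stipe replicate 1, the positions of single stage 1 libraries and the other tools for the tests against stage 1 were added after seeing the data. Named genes are the 2 per direction with the largest difference in mean TPM among called genes whose libraries do not overlap, and genes called between the stage 2 and young tissue differences with a mean of at least 20 TPM in one of those groups. The groups and rules were chosen with earlier results of these data known. No pair of libraries of a tissue agreed within sampling noise (chi-square per degree of freedom 43.9 to 143.6). Labels do not say that a replicate number marks shared material, so p-values measure the spread between these libraries. In the young fruiting body, same-numbered cap and stipe libraries deviated together from their group means (correlations of 0.356, 0.250 and 0.393, other numbers at most 0). There the numbers may pair the libraries, by the data and not by the labels. The main fit holds no term for such pairing, so its tests of that stage are unpaired. Fits with the replicate number as a block are given as an alternative. Replicates 1 and 3 of that stage also share a flowcell between tissues.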

Additional observations from a re-analysis of the deposited data

Results flagged for a closer look

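The tissue difference between cap and stipe was tested for a change from stage 2 to later stages. By edgeR a change was called in 1215 genes for the mature fruiting body (126 with flowcell as a covariate) and in 1 gene for the young fruiting body (66 with DESeq2). Among the named genes, the test of the difference was passed by Lenti6_1_612170 from stage 2 to maturity, with a change in log2 fold change of -4.68. Lenti6_1_246303 passed it from stage 2 to the young fruiting body (-4.03) and to maturity (-3.01). The last of these was not called with flowcell as a covariate (-2.56, edgeR adjusted p = 0.0556, from 0.000136 over 21 alternatives).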

How the results depend on the processing

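Of 146 results on counts recomputed under other settings, 95 stayed within 1.5 times. The stage 2 count was 316 (149 higher in the cap, 167 in the stipe) at 4-fold and 259 (137 and 122) without both replicate 3 libraries. Leaving out single libraries gave 592 to 1142 calls, 238 to 478 higher in the cap and 316 to 664 in the stipe. Stage 2 genes called the same way in the young fruiting body numbered 145 at 4-fold and 325 to 611 without single libraries. At maturity they numbered 85 at 4-fold, 130 in the libraries compared alone, 47 with flowcell as a covariate and 154 to 287 without single libraries. With the replicate number as a block that count was 173, and the change in tissue difference from stage 2 was called in 469 genes at maturity and 0 in the young fruiting body. The change to the young fruiting body was called in 9 genes with RLE scaling, 66 with DESeq2, 5 with limma-voom, 28 in the 12 libraries alone, 2 with flowcell as a covariate, 6 on the deposited log2 RPKM and 0 to 19 without single libraries. The change to maturity was called in 552 at 4-fold, 126 with flowcell as a covariate and 577 to 1522 without single libraries. The cause of these changes was not tested. Fits without single libraries, and those of the compared libraries alone, also hold fewer libraries than the main fit. No value of a named gene changed sign. Same-numbered cap and stipe libraries of stage 2 deviated from their group means with correlations of 0.217, 0.496 and 0.003, so the numbers were not taken to pair them, and the block gave 1014 calls in place of 1056. Those of the young fruiting body all correlated at over 0.1, and with the block 532 stage 2 genes were called the same way there in place of 566.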
